A study of Mus musculus with 4 samples.

Results

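The interferon response genes described here are 39 mouse genes that cells switch on after exposure to interferons, taken as a list of gene names. No threshold on the arrays chose them, but the list was drawn up with earlier results of these data known. The array files name probes by transcript accession, and 37 of the 39 genes were found by matching those accessions to RefSeq. Mx1 and Mx2 matched no probe and were not analysed here. Of the 37, Oas3 had a single probe that was not well above background on any array, which left 36 genes among the 26378 tested. All 36 were well above background on all 4 arrays. The brightest probe of each gene was used.

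The samples are pancreatic islets isolated from mice, 1 mouse per array. Control islets, titled wild type, carried the genotype Pdx1-Cre (2 mice), and Rb-deficient islets the genotype Pdx1-Cre:Rbf/f (2 mice), so all 4 mice carried the Cre transgene. Pdx1-Cre acts in the pancreatic epithelial lineage, which gives rise to endocrine, acinar and duct cells, and not in blood-derived cells, so that immune cells in an islet preparation keep the floxed alleles intact. Age, strain and sex are not given in the labels. Whole islets were measured, and more cells of a type and more RNA per cell cannot be told apart in such samples.

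Interferons are secreted proteins that warn cells of infection. Type I interferons bind the Ifnar1 and Ifnar2 receptor chains and act through a complex that holds Stat2 and Irf9 on promoters that hold an interferon-stimulated response element (ISRE). Interferon gamma, made by T and NK cells, acts through gamma-activated sites (GAS). In islets this response is known from viral infection and from autoimmune diabetes. The 39 genes were split into 28 linked mainly to type I interferon and 11 linked mainly to interferon gamma, although many genes respond to both.

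The promoters of 8 members are shown because they hold letters that match the ISRE core or the GAS, the elements through which interferons act. Whether these matches serve the 8 genes was not tested. Promoter windows of RefSeq (build GRCm38.p6, 250 bases before to 50 after the start of the gene) were found for 30 members. Each window was searched on both strands for GAAANNGAAA, whose reverse complement is TTTCNNTTTC, as the ISRE core, and for TTCNNNGAA, which reads the same on both strands, as the GAS. The ISRE core was found for 19 of 30 members, 63.3%, against 3.99% of all 27025 genes with a window. A GAS was found for 10 members, 33.3%, against 9.55% of all genes. The 2 motifs overlapped in the windows of 2 members, Bst2 and Ifitm3. Below are the 160 bases before the start, 5′ to 3′ on the strand of the gene, with matches in capitals, first for 4 genes linked to type I interferon.
Isg15 (chr4:156200819-156200978, minus strand): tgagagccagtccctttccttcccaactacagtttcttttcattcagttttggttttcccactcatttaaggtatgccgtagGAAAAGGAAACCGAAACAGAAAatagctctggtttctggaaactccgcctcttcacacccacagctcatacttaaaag
Rsad2 (chr12:26456453-26456612, minus strand): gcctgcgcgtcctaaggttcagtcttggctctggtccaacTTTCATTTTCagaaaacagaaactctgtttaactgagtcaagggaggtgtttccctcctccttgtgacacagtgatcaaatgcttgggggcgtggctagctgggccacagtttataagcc
Ifit1 (chr19:34640729-34640888, plus strand): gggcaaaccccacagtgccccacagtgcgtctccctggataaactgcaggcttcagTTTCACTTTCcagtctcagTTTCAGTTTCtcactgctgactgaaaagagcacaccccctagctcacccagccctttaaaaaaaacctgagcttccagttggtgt
Ifit3 (chr19:34583369-34583528, plus strand): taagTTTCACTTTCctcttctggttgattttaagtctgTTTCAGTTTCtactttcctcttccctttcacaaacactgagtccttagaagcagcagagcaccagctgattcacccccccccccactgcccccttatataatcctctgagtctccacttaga
The next 4 belong to genes linked to interferon gamma.
Igtp (chr11:58199396-58199555, plus strand): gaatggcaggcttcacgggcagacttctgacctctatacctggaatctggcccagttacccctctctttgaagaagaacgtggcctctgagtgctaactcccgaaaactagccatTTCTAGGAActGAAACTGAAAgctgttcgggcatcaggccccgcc
Irgm2 (chr11:58214817-58214976, plus strand): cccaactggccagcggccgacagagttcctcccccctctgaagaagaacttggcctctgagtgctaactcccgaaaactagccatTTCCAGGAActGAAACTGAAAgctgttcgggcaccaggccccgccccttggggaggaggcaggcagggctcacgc
Gbp3 (chr3:142559884-142560043, plus strand): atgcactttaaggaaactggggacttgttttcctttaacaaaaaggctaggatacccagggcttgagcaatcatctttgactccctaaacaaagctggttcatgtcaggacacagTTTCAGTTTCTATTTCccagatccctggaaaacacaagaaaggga
Gbp7 (chr3:142530176-142530335, plus strand): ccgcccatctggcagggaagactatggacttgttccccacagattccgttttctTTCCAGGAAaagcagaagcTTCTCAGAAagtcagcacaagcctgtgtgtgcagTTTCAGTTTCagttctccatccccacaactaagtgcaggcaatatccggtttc
Isg15 had 3 overlapping ISRE matches, and Ifit1 and Ifit3 had 2 each. In Igtp and Irgm2 the GAS match began 11 bases before the ISRE match. Gbp7, the single member with a lower mean in Rb-deficient islets, held 1 ISRE and 2 GAS matches. ISRE matches were present in 11 of 21 type I-linked and in 8 of 9 gamma-linked genes with a window, and GAS matches in 5 of 21 and 5 of 9. The median log2 difference between Rb-deficient and control islets was 0.51 over the 18 tested members with an ISRE match and 0.48 over the 11 without. It was 0.40 over the 10 members with a GAS match and 0.71 over the 19 without, and neither contrast was tested. A match is a description of the letters in this window and does not show binding.

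The arrays differed in ways that touch these values. Control array 1 had 76.5% of its probes well above background, and the other 3 had 59.0% to 59.9%. Control array 1 carried signal of the Y-linked genes Uty, Ddx3y, Eif2s3y and Kdm5d and had Xist not well above background, while the other 3 arrays showed the opposite, so the control group joins a male and a female profile. Ins1 lay between 9.36 and 9.91 and Gcg, the glucagon gene, between 7.96 and 9.44 in log2 signal relative to the 75th percentile of the array, so the hormone genes of islets were strong on all 4. Rb1, the deleted gene, stood at 0.28 and 0.86 in control and at -0.48 and -0.90 in Rb-deficient islets. This difference of -1.26 had a standard error of 0.31 and was not called (limma, Benjamini-Hochberg adjusted p 0.735).

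Interferon response genes lay higher in Rb-deficient islets. Of the 36 measured, 35 had a higher mean, where 41.9% of all genes did, and the median log2 difference was 0.55, a 1.46-fold difference, where the median of all genes was -0.07. Both Rb-deficient arrays lay above both controls for 17 members, 47.2%, against 15.3% of all genes, and the reverse held for 1 member, Gbp7, against 20.7%. At least 2-fold higher in mean were 10 members, 27.8%, against 1.7% of all genes. No member passed the test across all genes. By limma, with Benjamini-Hochberg adjustment over the whole table, 0 members and 0% of all genes were called, and the members had adjusted p values from 0.704 to 0.998. At an unadjusted p under 0.05 were 3 members, Oas2, Rsad2 and Iigp1, all higher, against 1.48% of all genes that were higher at that level, and 0 members were lower, against 4.18%. With 2 arrays a group, the smallest two-sided p of an exact permutation test of 1 gene is 0.333, so that test was not used.

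**Figure D1:**
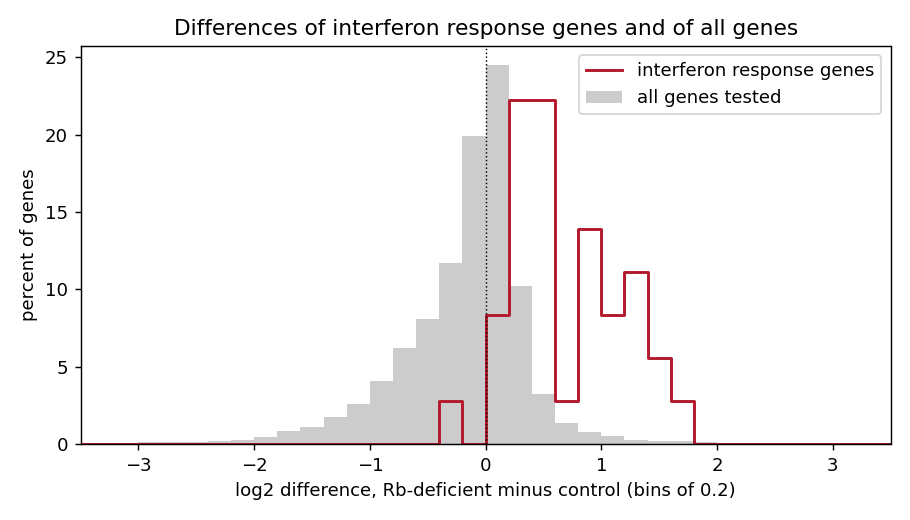
Share of genes (percent) in bins of 0.2 of the log2 difference between Rb-deficient and control islets, for all 26378 genes tested (grey bars) and for the 36 interferon response genes (red line). All but 1 of the 36 lie to the right of 0, while 41.9% of all genes do.

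The higher values were mostly those of Rb-deficient mouse 2. Relative to the control mean, the members' median was 1.05 on Rb-deficient array 2 and 0.16 on Rb-deficient array 1, where all genes had medians of -0.09 and -0.02. Array 2 exceeded both controls for 32 members, 88.9%, against 32.2% of all genes. Array 1 exceeded both for 18 members, 50% against 28.2%, lay between the controls for 14 and below both for 4. At least 2-fold above the control mean were 19 members on array 2, where 3.41% of all genes were, and 2 members on array 1, where 1.48% were. Those 2 members were Oas2 and Rsad2. Array 2 was higher than array 1 for 32 of 36 members, against 44.1% of all genes. The Rb-deficient mice were farther apart than the control mice for 27 members, 75%, against 55.1% of all genes. Without Rb-deficient array 2 the median difference was 0.16 and 25 of 36 members were higher, where the median of all genes was -0.02. Without Rb-deficient array 1 the median was 1.05, with the same 32 members above both controls.

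**Figure D2:**
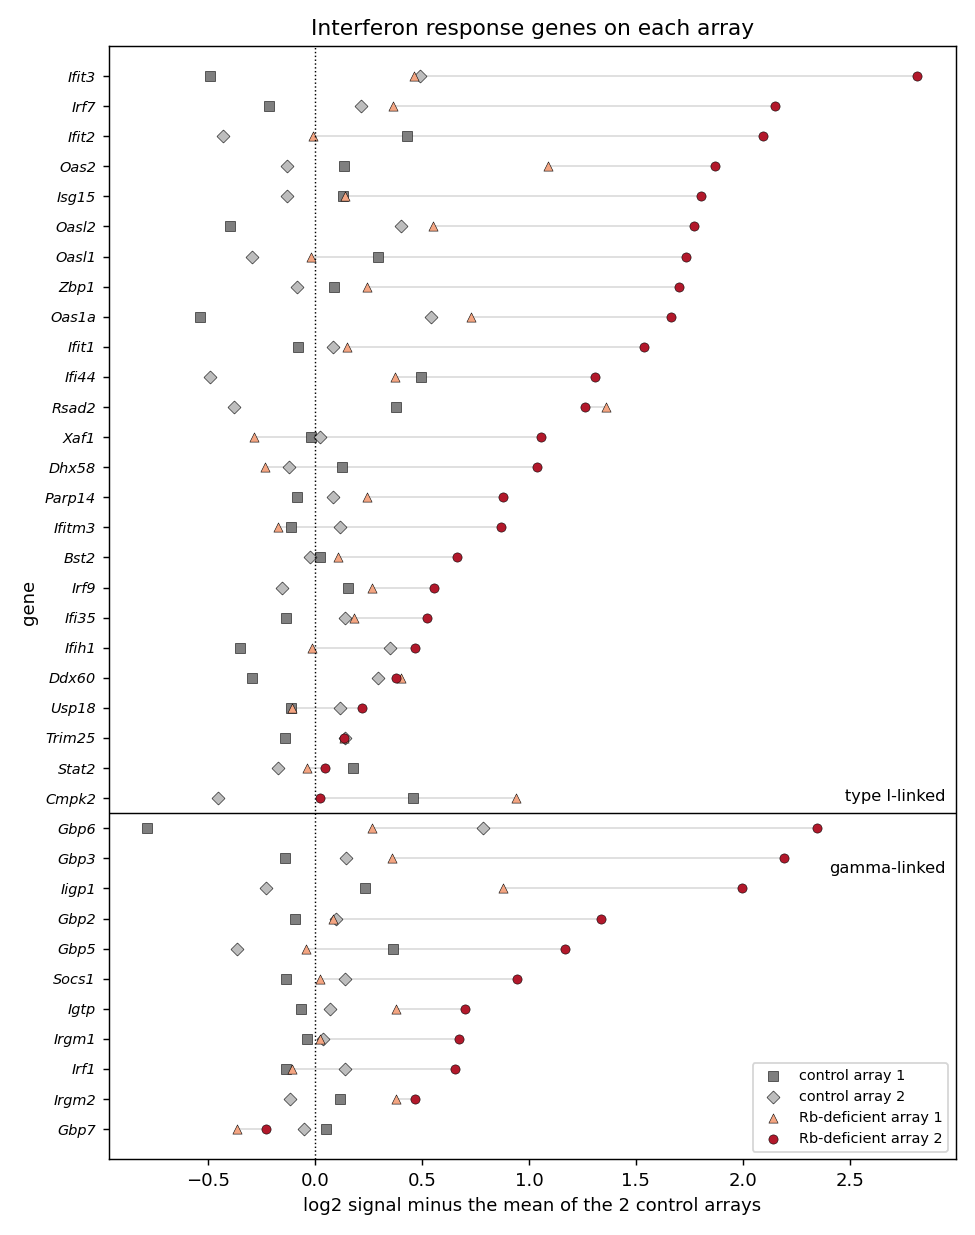
Log2 signal of each of the 36 interferon response genes on each array, minus the mean of the 2 control arrays (dotted line at 0). Grey symbols are control arrays, the orange triangle is Rb-deficient array 1 and the red circle Rb-deficient array 2, which exceeds both controls for 32 genes. Type I-linked genes are above the black line and gamma-linked genes below it, each sorted by array 2.

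Oligoadenylate synthetases and their relatives had higher means in Rb-deficient islets for all 4 tested genes. The synthetases make a second messenger that activates RNase L, which cuts viral and cellular RNA. The 4 tested genes had a median difference of 1.18, or 2.26-fold. Oas2 had log2 signals of -2.94 and -3.21 in control and -1.98 and -1.21 in Rb-deficient islets. Both Rb-deficient mice thus lay clear of both controls, with 2.13-fold and 3.65-fold higher signal than the control mean. The difference of 1.48 (standard error 0.34, 2.79-fold) was not called (limma, Benjamini-Hochberg adjusted p 0.704), and a second Oas2 probe, well above background on 1 array, differed by -0.020. Oas1a gave -0.36 and 0.72 in control and 0.90 and 1.84 in Rb-deficient islets. The control mice differed from each other by more for Oas1a than Rb-deficient mouse 1 did from the higher control. Oasl2, another member of the family, stood at -1.77 and -0.97 against -0.82 and 0.40. Oasl1, known in mice as a translational repressor of Irf7, stood at -1.48 and -2.08 against -1.80 and -0.04, so only Rb-deficient mouse 2 exceeded the controls.

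Among the membrane and nucleotide-based effectors, Rsad2 was higher by a like amount in both Rb-deficient mice. Rsad2 encodes viperin, which makes a chain-terminating nucleotide that blocks viral RNA synthesis. Its log2 signal was -1.23 and -1.99 in control islets and -0.24 and -0.35 in Rb-deficient islets, means of -1.61 ± 0.54 and -0.30 ± 0.07 (SD, n = 2). Here the Rb-deficient mice lay close together and above both controls, and the 2 Rsad2 probes gave differences of 1.31 and 1.16. The fold was 2.48 (limma, Benjamini-Hochberg adjusted p 0.746). Cmpk2, the neighbouring gene on chromosome 12, encodes a mitochondrial nucleotide kinase. It did not separate the groups, with 1.50 and 0.59 in control and 1.98 and 1.07 in Rb-deficient islets, ranges that overlap. Bst2, which encodes tetherin and holds budding viruses at the cell surface, stood at -0.12 and -0.17 against -0.04 and 0.52. Ifitm3, which blocks virus entry from endosomes, stood at 0.85 and 1.08 against 0.80 and 1.84, so that mouse 1 was below and mouse 2 above the controls.

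The IFIT genes, neighbours on chromosome 19 whose products bind foreign RNA and stall its translation, were high on Rb-deficient array 2 alone. Ifit3 stood at -3.22 and -2.24 in control and at -2.26 and 0.09 in Rb-deficient islets, or 7.04-fold and 1.38-fold the control mean on arrays 2 and 1. With means of -2.73 ± 0.69 and -1.09 ± 1.66 (SD, n = 2), the difference of 1.64 had a standard error of 0.94. Ifit2 stood at -4.31 and -5.17 against -4.75 and -2.64, and Ifit1 at -3.27 and -3.11 against -3.04 and -1.65. In each of the 3 genes mouse 1 lay within or just above the control range, and mouse 2 lay 2.90-fold to 7.04-fold above the control mean. Ifit3b, a near copy of Ifit3 that is not a member, stood at -4.22 and -3.20 against -3.02 and -1.23, and whether either probe also binds the other transcript was not tested.

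Transcription factors of the pathway differed among themselves. Irf7, the factor that amplifies interferon production, stood at 0.34 and 0.77 in control and 0.92 and 2.71 in Rb-deficient islets. Its difference of 1.26 (standard error 0.69) came with 0.52 in a second probe, on which array 1 lay below both controls. Irf9, the DNA-binding subunit of the type I complex, stood at 0.62 and 0.31 against 0.73 and 1.02, above both controls in both mice, by 1.33-fold in mean and with 0.34 in its other probe. Stat2, its partner, was at 0.88 and 0.53 against 0.66 and 0.75. Stat2 was thus level in its brightest probe, with a difference of 0.00 ± 0.21 (standard error), while its dimmer probe differed by -1.52. Irf1, the factor induced most directly by interferon gamma, stood at 2.33 and 2.61 against 2.36 and 3.13, and its dimmer probe differed by -0.37 in place of 0.27. The 2 factors with probes of opposite sign were Irf1 and Stat2, out of 11 members with several probes past the filter.

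Sensors of foreign nucleic acid followed Rb-deficient mouse 2 for the most part. Zbp1, a sensor of left-handed nucleic acid that starts necroptosis, stood at -3.58 and -3.76 in control and -3.43 and -1.97 in Rb-deficient islets. A second Zbp1 probe, well above background on 2 arrays, differed by -0.97. Dhx58 and Ifih1, which encode the RNA helicases LGP2 and MDA5, stood at -2.69 and -2.94 against -3.05 and -1.78 and at -1.87 and -1.17 against -1.54 and -1.05. For both, mouse 1 was not above the controls. Ddx60, another helicase gene, stood at -4.57 and -3.98 against -3.87 and -3.90, a difference of 0.39 that was -0.017 with normexp background correction.

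Isg15, a ubiquitin-like protein that is joined to other proteins during the response, showed how far the mice differed. Its signal was -0.69 and -0.95 in control islets and -0.68 and 0.98 in Rb-deficient islets. Mouse 1 thus nearly matched the higher control, and mouse 2 was 3.49-fold above the control mean. Isg15 is counted among the 17 members above both controls, although mouse 1 passed the higher control narrowly, at -0.682 against -0.689. Usp18, which removes Isg15 and shuts off the type I receptor, stood at 1.17 and 1.40 against 1.18 and 1.51. Trim25, a ubiquitin ligase that activates the RNA sensor Rig-I, stood at 4.31 and 4.59 against 4.59 and 4.59. Neither Usp18 nor Trim25 separated the groups, with a difference of 0.05 for Usp18 (standard error 0.22) and of 0.13 for Trim25 (standard error 0.20). Socs1, which blocks Jak kinases and is induced by interferon gamma, stood at -3.68 and -3.40 against -3.52 and -2.59.

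Of the other type I-linked genes, Parp14, an ADP-ribosyltransferase, stood at -0.24 and -0.07 in control and 0.09 and 0.72 in Rb-deficient islets. Ifi35 stood at 2.92 and 3.19 against 3.23 and 3.58, with 0.31 in its second probe against 0.35. Both genes were above both controls in both mice. Ifi44 stood at -2.14 and -3.12 against -2.26 and -1.32. Xaf1, a pro-apoptotic gene, stood at -1.81 and -1.77 against -2.07 and -0.73. In these last 2 genes only mouse 2 exceeded the controls.

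**Figure D3:**
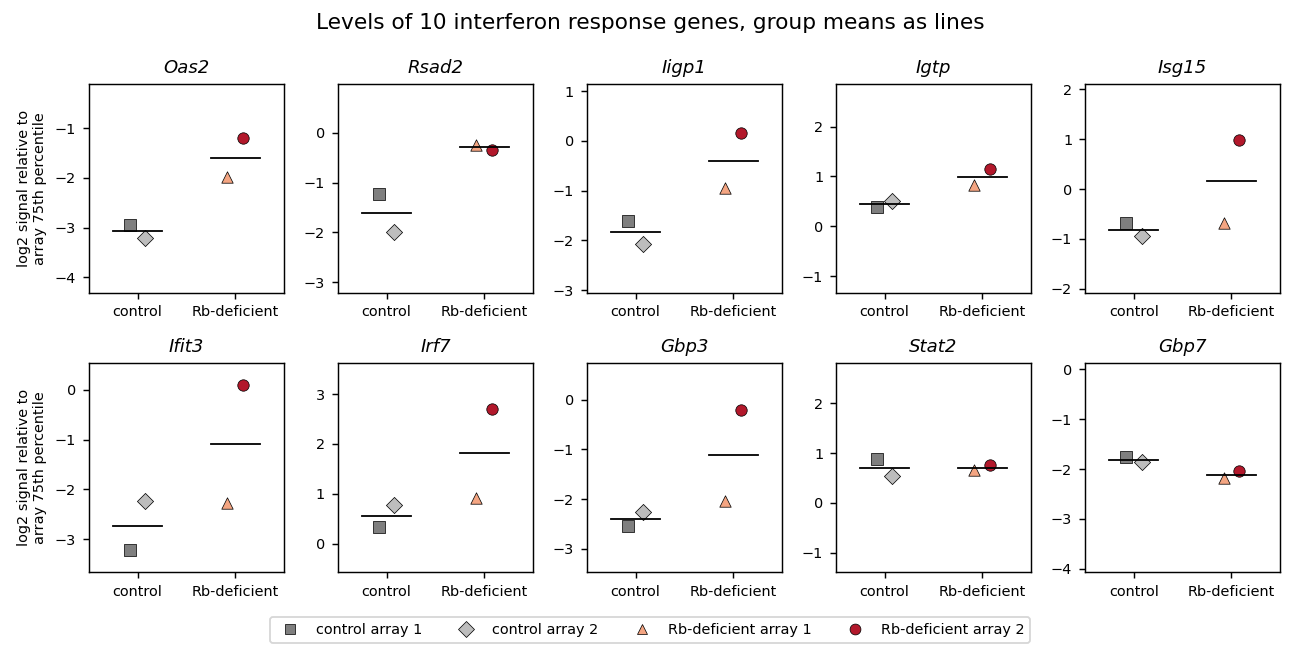
Log2 signal relative to the 75th percentile of the array for 10 interferon response genes, with each array as a symbol and each group mean as a line. All panels span the same number of log2 units. The Rb-deficient symbols lie together for Rsad2, at -0.24 and -0.35, and far apart for Isg15, at -0.68 and 0.98.

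Immunity-related GTPases, which attack the vacuoles of intracellular parasites in mice, exceeded both controls in both Rb-deficient mice for 3 of 4 genes, against 15.3% of all genes, and had a median difference of 0.48. Iigp1 stood at -1.60 and -2.07 in control and -0.96 and 0.16 in Rb-deficient islets, a difference of 1.44 (standard error 0.47, 2.71-fold; limma, Benjamini-Hochberg adjusted p 0.863). Igtp stood at 0.38 and 0.51 against 0.82 and 1.15. Irgm2, next to Igtp on chromosome 11, stood at -0.33 and -0.57 against -0.07 and 0.02. Igtp and Irgm2, which share the paired GAS and ISRE shown above, were 1.45-fold and 1.34-fold higher in mean, with the Rb-deficient mice 0.32 and 0.09 apart. Irgm1, a regulator of the others, stood at 0.04 and 0.11 against 0.10 and 0.75, and its 3 probes gave differences of 0.35, 0.37 and 0.42.

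Guanylate-binding proteins, which coat pathogens and help to start inflammasomes, were high on Rb-deficient array 2 in 4 of 5 genes. Gbp3 stood at -2.54 and -2.25 in control and -2.04 and -0.20 in Rb-deficient islets, or 4.57-fold and 1.28-fold the control mean on arrays 2 and 1. Gbp2 stood at -2.17 and -1.98 against -1.99 and -0.74, and Gbp5 at -2.66 and -3.39 against -3.07 and -1.86. Gbp6 was uneven in both groups, at -4.96 and -3.39 against -3.91 and -1.82. For Gbp2, Gbp5 and Gbp6 mouse 1 lay between the controls. Gbp7 departed from its neighbours on chromosome 3, with -1.77 and -1.87 in control and -2.18 and -2.04 in Rb-deficient islets, a difference of -0.30 (standard error 0.18) that was 0.14 with scaling to the array median. Gbp family members are similar in sequence, and binding of a probe to more than 1 of them was not tested.

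Genes linked to type I interferon and to interferon gamma showed differences of like size. The median difference was 0.56 over 25 type I-linked and 0.54 over 11 gamma-linked genes, where that of all genes was -0.07. Set against the control mean, the medians were 1.06 and 0.94 on array 2 and 0.18 and 0.083 on array 1. Both Rb-deficient arrays exceeded both controls for 13 of 25 type I-linked genes, 52%, and for 4 of 11 gamma-linked genes, 36.4%, where they did for 15.3% of all genes. The difference between the 2 classes was not tested. Without Rb-deficient array 2 the median differences were likewise 0.18 and 0.083.

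**Figure D4:**
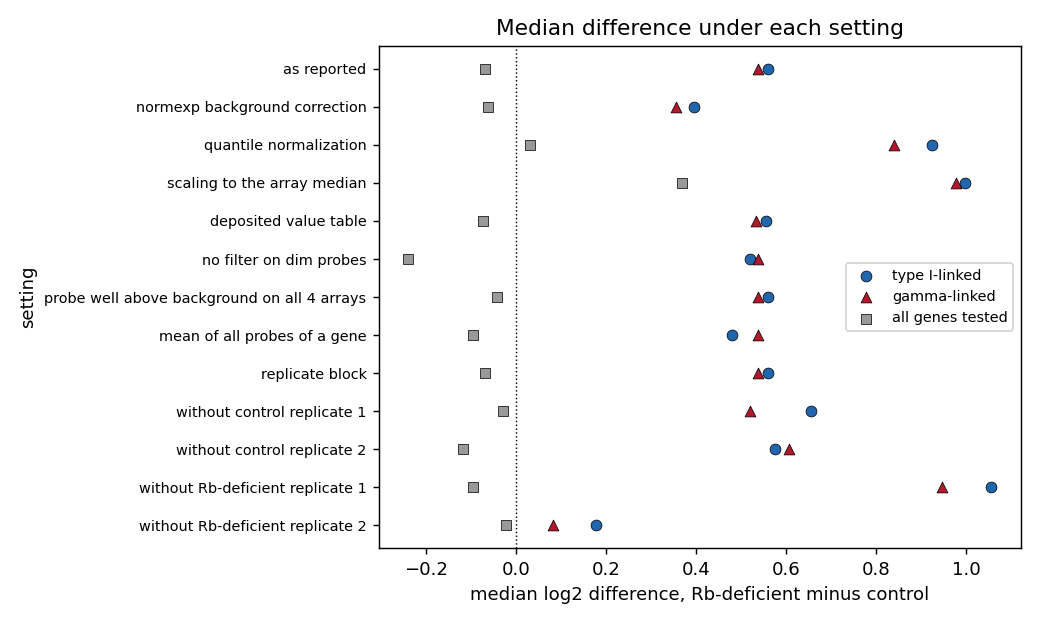
Median log2 difference between Rb-deficient and control islets of the type I-linked genes (blue circles), the gamma-linked genes (red triangles) and all genes tested (grey squares), as reported and under each other setting. The smallest medians of both classes, 0.18 and 0.083, are those without Rb-deficient replicate 2.

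Upstream parts of the pathway had medians near or below 0. Of 12 interferon genes with a probe, 7 were tested and all 7 had a lower mean in Rb-deficient islets, with a median of -0.60. Ifnb1 and Ifng, the genes of interferon beta and gamma, were not well above background on any array. Ifna9 stood at 2.66 and 2.14 in control and 0.88 and -0.41 in Rb-deficient islets, 4.47-fold lower and not called (limma, Benjamini-Hochberg adjusted p 0.737). Receptors and signal carriers had a median of -0.03, with 4 of 10 higher. Genes of nucleic acid sensing had a median of 0.06, with 12 of 18 higher and 6 lower. Cgas, the cytosolic DNA sensor, stood at -2.34 and -3.47 against -2.01 and -2.01. Tlr3, the gene of that list with the smallest unadjusted p, went the other way, at -4.07 and -4.97 against -5.52 and -5.57. Tlr3 was not well above background on either Rb-deficient array. It passed the filter on dim probes only through the control group, where it was higher, so its p supports nothing. Tlr3 is also included in the 18 tested, the 6 lower and the median of that list. Further negative regulators had a median of -0.05, with 3 of 8 higher, and Nlrx1, a mitochondrial regulator, was 1.63-fold lower. In limma with Benjamini-Hochberg adjustment 0 genes of these lists were called.

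Other interferon-stimulated genes outside the 39 showed a smaller median. Of 50 such genes 41 were tested, 32 had a higher mean and 19 lay above both controls in both mice, 46.3% against 15.3% of all genes. The median was 0.23, with 0.16 on Rb-deficient array 1 and 0.51 on array 2, and 0 genes were called in limma with Benjamini-Hochberg adjustment, with 2 at an unadjusted p under 0.05. Those 2 genes were Ifi205, a DNA-binding protein of the p200 family, and Tgtp2, a further immunity-related GTPase. Tgtp2 stood at 0.21 and -0.15 in control and 0.70 and 1.59 in Rb-deficient islets, 2.16-fold higher. Ifi205 stood at -5.22 and -5.83 against -4.35 and -3.17, and was not well above background on either control array. It passed the filter on dim probes only through the Rb-deficient group, where it was higher, so its p supports nothing. The count at an unadjusted p under 0.05 thus rests on Tgtp2 alone. Ifi205 is also included in the 41 tested, the 32 higher, the 19 above both controls and the medians of this list. Ifi47 stood at -0.87 and -1.34 against -0.55 and 0.27, and Trim34a, a TRIM family gene, at -2.72 and -2.21 against -1.91 and -1.58, both above both controls in both mice.

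Macrophage and dendritic cell markers were likewise highest in Rb-deficient mouse 2. Of 24 markers 23 were tested and 21 had a higher mean, with a median difference of 0.85, and medians relative to the control mean of 0.32 on array 1 and 1.42 on array 2. The summed signal of the list, in units of the 75th percentile, was 52.5 and 53.6 in control and 60.2 and 66.3 in Rb-deficient islets. None of the 24 was at background on all arrays. Fcgr1, at -5.13 and -5.11 in control and -4.79 and -2.52 in Rb-deficient islets, was not well above background on either control array. It passed the filter on dim probes only through the Rb-deficient group, where it was higher, and is included in these counts, medians and sums. Ctss, a lysosomal protease of antigen-presenting cells, stood at 1.82 and 2.33 in control and 2.57 and 3.72 in Rb-deficient islets. C1qa, a complement gene of tissue macrophages, stood at 1.61 and 1.61 against 1.99 and 2.11. Itgam, the brightest marker and the integrin chain CD11b, went the other way on array 2, at 5.15 and 5.05 against 5.23 and 4.43. Itgam alone made up most of the summed signal on both control arrays and on Rb-deficient array 1, but not on Rb-deficient array 2. Itgam was lowest on Rb-deficient array 2, where the sum was highest, so the higher sum there came from the other markers. Csf1r, the receptor for a macrophage growth factor, stood at 2.17 and 2.13 against 2.16 and 2.52. The part of these cells in the interferon values was not tested.

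Markers of other cell types also differed between the Rb-deficient mice. Stromal and pericyte markers had medians of -0.57 and 0.57 on Rb-deficient arrays 1 and 2, with summed signals of 10.3 and 12.2 in control and 9.65 and 17.3 in Rb-deficient islets and with Pdgfra at background on all arrays. Endothelial markers had medians of 0.01 and 0.37 and summed signals of 51.5 and 53.5 against 54.0 and 66.3. Acinar markers had medians of -0.22 and -1.01, with 13 of 13 lower in mean and summed signals of 9830 and 7995 against 7266 and 4305. The 3 lists thus stood farther from the control mean on Rb-deficient array 2 than in either control, in the endothelial and stromal lists above it and in the acinar list below it. T, B and NK cell markers, of which 11 of 18 were tested, had medians of -0.19 and 0.06. Their summed signals were 10.7 and 8.67 against 9.28 and 9.38. Among the markers not tested, Cd8a and Gzmb were at background on all arrays. Plasmacytoid dendritic cell markers, of which Bst2 is 1, had medians of -0.03 and 0.24 and summed signals of 411 and 363 against 305 and 159. Nearly all of these sums came from Siglech, Klk1 and Cox6a2, which differed by -0.52, -1.44 and -0.51. The other 4 of the 7 tested had a higher mean, so the sums do not describe the list as a whole. Ductal markers had medians of -0.28 and -0.39 and summed signals of 22.7 and 16.3 against 13.4 and 17.4. Endocrine markers had medians of 0.02 and -0.08 and summed signals of 6068 and 5769 against 5984 and 5134. The part of any of these lists in the interferon values was not tested.

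**Figure D5:**
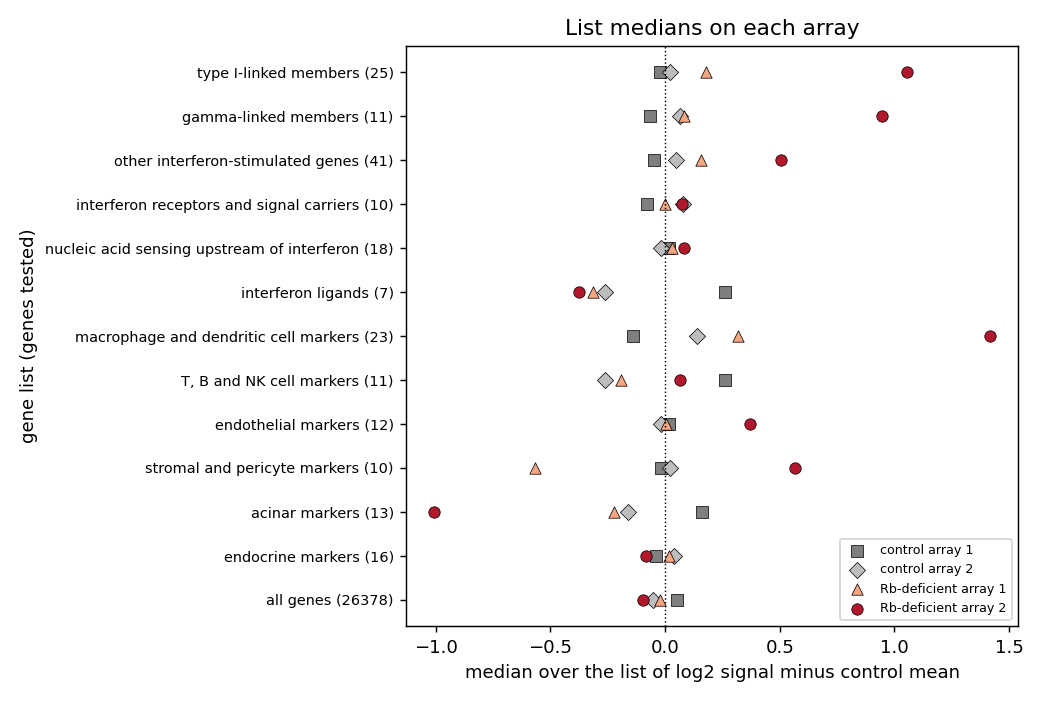
Median over each gene list of the log2 signal minus the control mean, for each of the 4 arrays, with the number of genes tested in brackets. On Rb-deficient array 2 (red circles) the type I-linked genes lie at 1.06, the gamma-linked genes at 0.94, macrophage and dendritic cell markers at 1.42 and acinar markers at -1.01.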

How the data were processed

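RNA of pancreatic islets of 4 mice was measured on 4 single-colour Agilent arrays, 2 control and 2 Rb-deficient, grouped by the sample titles. The deposited scanner output gives the intensity of each spot after background subtraction and spatial detrending in Agilent Feature Extraction 12.0.3.1, unscaled between arrays. Both this and the mm9 annotation of the design are stated per the file headers. Since 1 slide held all arrays, slide could not be a block. The number of arrays limits the precision. No spot was saturated.

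Control spots were left out, as were 64 to 93 outlier spots per array. Each value was log2 of the processed intensity minus the 75th percentile of the array over non-control probes. Of 56605 probes, the 33848 that both arrays of a group, control or Rb-deficient, showed well above background were kept. Accessions without versions were matched to RefSeq genes of GRCm38.p6, which named 32994 probes. The comparison of groups used lmFit and eBayes of limma 3.58.1 (R 4.3.3) without covariates, two-sided, with 2 residual degrees of freedom and a prior of 1.82. P values of the 26378 genes were adjusted together by Benjamini-Hochberg, and 0.05 was the threshold. The fit was tested on simulated data.

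The members, their split into type I-linked and gamma-linked genes and the other lists were chosen with earlier results of these data known. All members could be named, and of other lists at most 4 genes by smallest p or, for markers, by highest signal, plus Ifng, Ifnb1, Rb1, Ins1 and Gcg. Ifit3b, Fcgr1, Cd8a, Gzmb, Pdgfra, the sex-linked genes and the pair of Igtp and Irgm2 were singled out after their values were seen. A deposited value table held intensity values equal to the processed signal times a constant per array (2.44, 2.15, 2.49 and 1.74, all 48058 features within 1 percent). Its column medians were 220.1, 180.7, 188.3 and 157.3, its scale was linear and uncentred, and which statistic set the constants is unknown. It served as an alternative. Further alternatives were normexp background correction, quantile normalization, median scaling, filters, averaged probes, a replicate block and leaving out each array.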

Additional observations from a re-analysis of the deposited data

How the results depend on the processing

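The members' median difference lay between 0.39 and 0.85 with normexp, quantile normalization, the deposited table, both other filters and averaged probes, and 0 members were called with each of these. Scaling to the array median, which adds a constant to every difference and took the median of all genes from -0.07 to 0.37, gave a gamma-linked median of 0.98, 480 called genes (234 higher and 246 lower) and 3 called members in limma with Benjamini-Hochberg adjustment. These were Ifit3, Oas2 and Iigp1 (adjusted p 0.0113, 0.0286 and 0.0365, against 0.704 or more for all members as reported). Relative to the median of all genes, the members' median was 0.62 with both scalings.

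Leaving out 1 array gave 0 called members and 0 called genes in limma each time, with 829 to 3975 genes at an unadjusted p under 0.05. The members' median then ranged from 0.16 (without Rb-deficient replicate 2) to 1.05 (without Rb-deficient replicate 1), the type I-linked median from 0.18 to 1.06 and the gamma-linked median from 0.083 to 0.94. Members higher ranged from 25 to 35 of 36, where the median of all genes ranged from -0.12 to -0.02. Members above the controls were 18 without Rb-deficient replicate 2, against 28.2% of all genes. They were 32 without Rb-deficient replicate 1, against 32.2%. Without control replicate 2 they were 26 and without control replicate 1 they were 23, and shares of all genes are not given for these. With fewer arrays, lying above the controls is easier by construction. Rb-deficient array 1 against control array 2 alone, chosen after seeing the data, gave 23 of 36 members higher, against 53.0% of all genes, and medians of 0.14 over the members, 0.15 over the type I-linked genes, -0.012 over the gamma-linked genes and 0.023 over all genes.

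Signs turned for 11 members in these fits. From lowest to highest, the difference ranged from -0.28 to 1.06 for Xaf1, from -0.23 to 1.04 for Dhx58, from -0.17 to 0.87 for Ifitm3, from -0.11 to 0.65 for Irf1, from -0.11 to 0.22 for Usp18, from -0.042 to 1.17 for Gbp5, from -0.019 to 1.74 for Oasl1 and from -0.010 to 2.09 for Ifit2, each lowest without Rb-deficient replicate 2. It ranged from -0.17 to 0.18 for Stat2 (lowest without control replicate 2), and from -0.12 to 0.58 for Ifih1 and from -0.0067 to 0.28 for Trim25 (lowest without control replicate 1). Usp18 was also -0.061 without control replicate 1, and Ifih1 -0.017 and Stat2 -0.040 without Rb-deficient replicate 2. Stat2 was -0.028 with quantile normalization, -0.0021 in the deposited table and -0.76 with averaged probes, where Irf1 was -0.051. Ddx60 was -0.017 with normexp and Gbp7 0.14 with median scaling. Beyond the construction of each setting, the cause was not tested.

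The titles number the arrays 1 and 2 in each group, but nothing ties same-numbered mice together. Their deviations from the group means correlated at 0.30 over genes. With the replicate block 0 genes were called, 3160 had an unadjusted p under 0.05 against 1493 without it, and 7 members against 3. Normexp on mean signals was not run, and the median signal was used in its place, a choice made after seeing the files. Signal over background limited Oas3 alone among the members with a probe.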

Other observations

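Members that sit next to each other in the genome did not always move together. Igtp and Irgm2, neighbours on chromosome 11, had promoter windows with an identical run of 61 bases and the same distance of 11 bases from the start of the GAS to the start of the ISRE match, and differed by 0.54 and 0.42 between the groups. Of the 4 Gbp genes on chromosome 3, Gbp3, Gbp2 and Gbp5 differed by 1.27, 0.71 and 0.56 and Gbp7 by -0.30. In the Rsad2 and Cmpk2 pair on chromosome 12, Rsad2 differed by 1.31 and Cmpk2 by 0.48, and Cmpk2 was higher on array 1 than on array 2 within both groups, at 1.50 against 0.59 and at 1.98 against 1.07.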
